A study of Mus musculus with 10 samples.

Results

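The genes described are 10 core genes of the Hippo pathway: the coactivators Yap1 and Wwtr1 (the gene of Taz), the transcription factors Tead1 to Tead4, the kinases Lats1 and Lats2, and the target genes Ankrd1 and Amotl2. They were chosen by their place in the pathway, with earlier results of these data known, and they are 10 of 22180 genes measured. Where a gene had several probe sets annotated with its symbol alone, the brightest on average over the 10 arrays was read. Yap1 has 2 such probe sets and each of the other 9 genes has 1.

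The cells were mouse embryonic fibroblasts (MEFs), which grow out in culture from the connective tissue of embryos, here from the back skin at E13.5 (days of gestation). Total RNA of 5 Zbtb4 knock-out and 5 wild-type samples was measured on Affymetrix arrays of 1 colour, to find the transcripts that depend on Zbtb4. This zinc finger protein recognises DNA with methylated CpG sites. The labels do not give the strain, the deleted part of the gene, the sex or the embryo of each sample, and nothing says that the samples are separate cultures, so every p-value here refers to the spread between arrays, which may be technical. All 12 fibroblast marker genes examined, Col1a1, Thy1 and Pdgfrb among them, lay above the median gene of every array. So did 13 of 15 smooth muscle, 7 of 18 skeletal muscle, 5 of 14 leukocyte, 3 of 15 endothelial and 2 of 9 keratinocyte markers. Zbtb4 gave log2 signals of 5.44, 5.76, 5.04, 5.62 and 5.39 in knock-out cells, against 6.06, 6.03, 5.94, 6.23 and 6.11 in wild-type cells. Every knock-out array lay below every wild-type array (difference -0.62 with a standard error of 0.12, limma adjusted p = 0.628). Probes outside the deleted part would keep their signal, but the source of the signal left in knock-out cells was not tested.

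In the Hippo pathway, the kinases Lats1 and Lats2 phosphorylate Yap and Taz, which are then held in the cytoplasm or degraded. Unphosphorylated Yap and Taz enter the nucleus and bind Tead factors, which recognise DNA and switch on genes of growth, matrix and the cytoskeleton. Fibroblasts spread on a stiff surface are known for active Yap and Taz. Control is thus largely through phosphorylation and location of the proteins, which RNA levels do not show, whereas Ankrd1 and Amotl2, like Ccn1 and Ccn2, are transcribed in response to Yap and Taz and serve as readouts of them.

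The promoters were searched for the short sequence that Tead factors recognise. RefSeq promoter windows on build GRCm38.p6, each 300 bases long with 250 before and 50 from the start onwards, matched 8 of the 10 genes by symbol, in 12 windows, some of which overlap. The motif GGAATG, searched on both strands, stood in at least 1 window of 6 of these 8 genes, namely Yap1, Wwtr1, Tead3, Lats2, Ankrd1 and Amotl2, and in no window of Tead2 or Lats1. Among all 27025 genes with a window, 16.6% held it. By window, 8 of the 12 held it, against 14.7% of all 32851 windows. Ankrd1, Amotl2 and Lats2 are known targets of Yap and some genes have several windows, so these shares are no test of enrichment. Below are the windows of Yap1, of its kinase gene Lats2 and of the target genes Ankrd1 and Amotl2, shown because they hold the motif both in the coactivator and in genes it is known to activate. Capitals mark the motif, written CATTCC where it lies on the opposite strand.
Yap1, chr9:8004547-8004846, minus strand: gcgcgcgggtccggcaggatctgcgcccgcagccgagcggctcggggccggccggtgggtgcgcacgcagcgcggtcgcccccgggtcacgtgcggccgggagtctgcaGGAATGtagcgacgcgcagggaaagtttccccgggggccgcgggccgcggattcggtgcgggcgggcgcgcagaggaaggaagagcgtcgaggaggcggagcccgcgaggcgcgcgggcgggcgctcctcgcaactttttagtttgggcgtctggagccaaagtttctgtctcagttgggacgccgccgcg
Lats2, chr14:57746074-57746373, minus strand: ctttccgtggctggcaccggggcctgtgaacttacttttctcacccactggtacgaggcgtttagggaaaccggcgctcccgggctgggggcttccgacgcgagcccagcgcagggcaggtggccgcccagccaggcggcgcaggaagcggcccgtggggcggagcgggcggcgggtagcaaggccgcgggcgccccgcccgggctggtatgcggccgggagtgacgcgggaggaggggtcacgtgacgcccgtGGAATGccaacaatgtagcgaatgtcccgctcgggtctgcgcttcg
Ankrd1, chr19:36119795-36120094, minus strand: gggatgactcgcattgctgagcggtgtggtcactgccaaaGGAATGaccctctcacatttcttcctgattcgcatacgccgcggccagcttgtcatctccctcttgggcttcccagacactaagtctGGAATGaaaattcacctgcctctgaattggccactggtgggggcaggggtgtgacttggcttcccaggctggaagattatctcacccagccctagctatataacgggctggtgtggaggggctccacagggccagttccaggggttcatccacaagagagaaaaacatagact
Amotl2, chr9:102717554-102717853, plus strand: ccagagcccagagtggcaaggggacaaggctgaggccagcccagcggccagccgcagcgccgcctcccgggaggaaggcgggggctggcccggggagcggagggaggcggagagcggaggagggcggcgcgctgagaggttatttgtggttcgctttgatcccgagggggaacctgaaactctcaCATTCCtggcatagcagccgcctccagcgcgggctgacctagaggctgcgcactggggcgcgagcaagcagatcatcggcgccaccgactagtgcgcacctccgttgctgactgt
The motif began 141 bases before the start in Yap1, 65 bases before it in Amotl2 and 4 bases after it in Lats2. Ankrd1 held 2 copies, which began 210 and 123 bases before the start. CG dinucleotides, the sites that DNA methylation acts on, numbered 49 in the window of Yap1 and 37 in the Lats2 window shown. They numbered 26 in that of Amotl2 and 7 in that of Ankrd1, against a median of 7 over all 32851 windows. A second Lats2 window, not shown, held 4 and no motif. A match of letters is a description and shows neither binding nor methylation.

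The difference between genotypes passed the test for none of the 10 genes. With limma's moderated test and Benjamini-Hochberg adjustment over all 22180 genes, 0 of the 10 had an adjusted p under 0.05, and the smallest was 0.857, for Tead2; over all genes 0% passed as well. At an unadjusted p under 0.05 there were 0 of the 10, where 5.98% of all genes lay. The arrays of knock-out and wild-type cells overlapped for all 10, whereas 0.987% of all genes had groups that did not overlap. The 95% intervals were taken gene by gene and, like the p-values, rest on the spread between arrays, which may be technical. Their bound farthest from 0 was a 1.29-fold lower signal in knock-out cells, for Tead4. All 10 intervals thus lay within 1.5-fold either way. In 8 of the 10 the knock-out mean was lower, against 49.3% of all genes, with a median log2 difference of -0.053 for the 10 and 0.0020 for all genes. The number of lower means changed with the setting. It was 6 of 10 after quantile normalization, 9 of 10 when arrays were centred on their medians, and 6 to 9 with single arrays left out. In bulk samples, fewer cells that express a gene and less RNA per cell cannot be told apart.

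**Figure D1:**
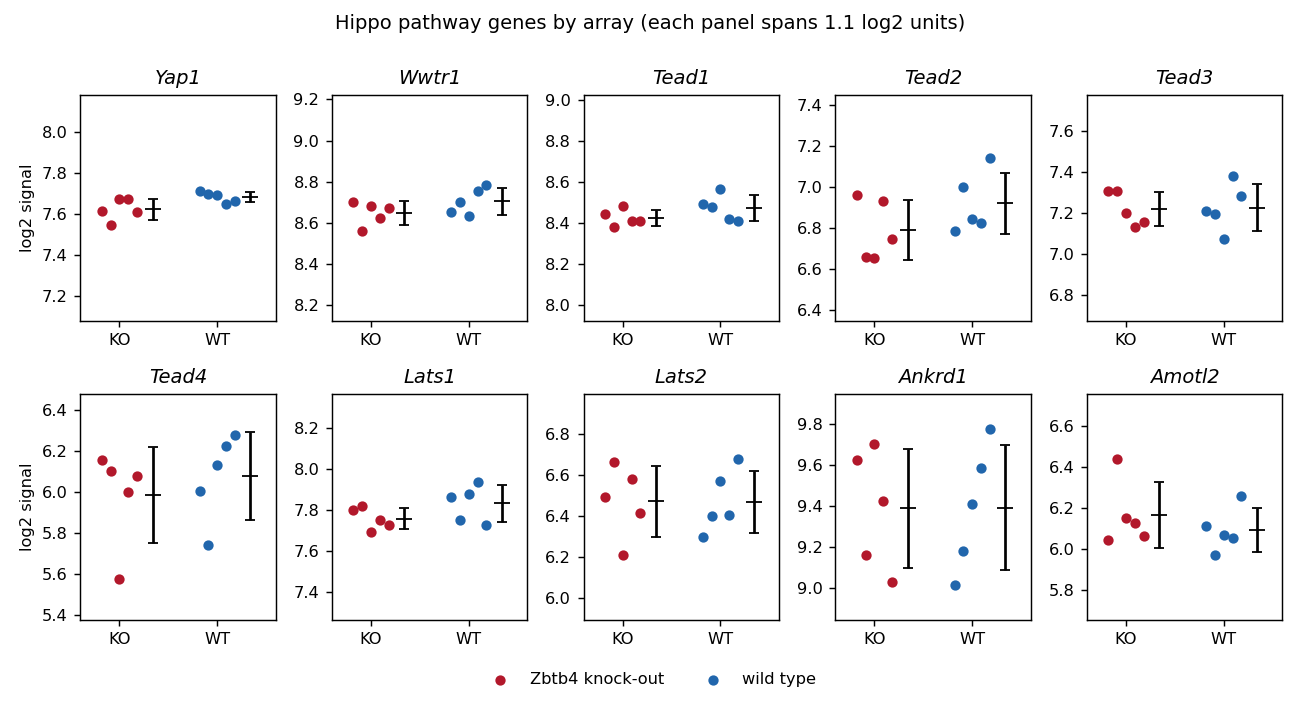
Log2 signal of the 10 genes on each array, with knock-out arrays at the left of each panel in red and wild-type arrays at the right in blue; bars show the mean and SD of 5 arrays. The vertical axes differ in position but all have the same length, so the spread can be set side by side: Yap1, Wwtr1, Tead1 and Lats1 lie close together and Ankrd1 is widely spread in both genotypes.

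The coactivators varied little. Yap1, the main transcriptional effector of the pathway, gave log2 signals of 7.62, 7.55, 7.67, 7.67 and 7.61 on the knock-out arrays, against 7.71, 7.70, 7.69, 7.65 and 7.66 on the wild-type arrays. The 2 highest knock-out arrays lay within the wild-type range and the other 3 below it. Yap1 averaged 7.62 ± 0.052 in the knock-out and 7.68 ± 0.026 in the wild type (SD, n = 5 each), and the difference was -0.060 (standard error 0.064, limma adjusted p = 0.899). The exact two-sided permutation test over all 252 ways to choose 5 of 10 arrays gave p = 0.0556, the smallest among the 10 genes. The SD within genotypes, 0.041, was among the lowest of all genes (percentile 0.28), and limma's standard error draws such a value towards those of other genes, which the permutation test does not. The second Yap1 probe set gave 5.87, 5.51, 6.08, 5.57 and 5.55 on knock-out arrays and 5.72, 5.75, 5.72, 5.62 and 5.57 on wild-type arrays, and its difference had the other sign, 0.039 with a standard error of 0.11. The lower knock-out mean of Yap1 thus held for 1 of its 2 probe sets.

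Wwtr1, which encodes Taz, the paralogue of Yap, gave 8.70, 8.56, 8.68, 8.62 and 8.67 in knock-out cells, against 8.65, 8.70, 8.63, 8.75 and 8.78 in wild-type cells. The 2 groups overlapped between 8.63 and 8.70, where 3 knock-out arrays and 3 wild-type arrays lay, and the difference was -0.057 (95% interval -0.20 to 0.090, limma adjusted p = 0.912). Its SD within genotypes was 0.061, also low among all genes (median 0.16).

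The Tead genes encode the DNA-binding partners of Yap and Taz, and the 4 differed in how much they varied. Tead1 ran from 8.38 to 8.48 in knock-out and from 8.41 to 8.57 in wild-type cells, a difference of -0.048 (limma adjusted p = 0.926). Tead2, a factor known from early embryos and the neural tube, gave 6.96, 6.66, 6.66, 6.93 and 6.75 in knock-out cells, against 6.79, 7.002, 6.85, 6.83 and 7.14 in wild-type cells. Of all 10 genes Tead2 had the largest difference of means, -0.13 (standard error 0.095, 95% interval -0.33 to 0.076, limma adjusted p = 0.857). Knock-out arrays 1 and 4 lay inside the wild-type range and the other 3 below it, and the difference was -0.17 without knock-out array 1, and -0.074 without wild-type array 5. Tead3 averaged 7.22 ± 0.082 on knock-out arrays and 7.23 ± 0.11 on wild-type arrays (SD, n = 5 each), and the sign of its difference of -0.0066 turned to 0.025 under quantile normalization.

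Tead4, known for its role in the trophectoderm and in muscle precursors, was decided by single arrays. It gave 6.16, 6.10, 5.58, 6.001 and 6.08 in knock-out cells, against 6.01, 5.74, 6.13, 6.23 and 6.28 in wild-type cells. Knock-out array 3 lay far below the other knock-out arrays and wild-type array 2 was the lowest of its genotype. The difference of -0.094 (standard error 0.13, limma adjusted p = 0.926) was 0.0081 without knock-out array 3, and -0.18 without wild-type array 2. On knock-out array 3 the 14 leukocyte markers stood highest, with a mean log2 deviation of 0.79, where the remaining knock-out arrays had -0.52 to 0.14 and the wild-type arrays -0.29 to 0.13. The knock-out mean was higher for 12 of these markers, where 49.3% of all genes had a lower one, and 0 of the markers passed the test. The log2 of the markers' summed signal ran from 8.24 to 10.08 in knock-out and from 8.58 to 9.25 in wild-type cells. Their part in the low Tead4 value was not tested.

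The Lats kinases phosphorylate Yap and Taz, and Lats2 is itself a known target of Yap. Lats1 ran from 7.69 to 7.82 in knock-out and from 7.73 to 7.94 in wild-type cells, and the difference was -0.074 (standard error 0.071, limma adjusted p = 0.891). Lats2 gave 6.49, 6.66, 6.21, 6.58 and 6.41 in knock-out cells, against 6.30, 6.40, 6.57, 6.40 and 6.68 in wild-type cells. The groups covered nearly the same range and their means were 6.47 ± 0.17 on knock-out arrays and 6.47 ± 0.15 on wild-type arrays (SD, n = 5 each), which left a difference of 0.0026 with bounds of -0.22 and 0.22 at 95%. The sign of so small a value changed with the setting, with -0.015 when arrays were centred on their medians. Knock-out array 3, low for Tead4, also had the lowest Lats2 signal.

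**Figure D2:**
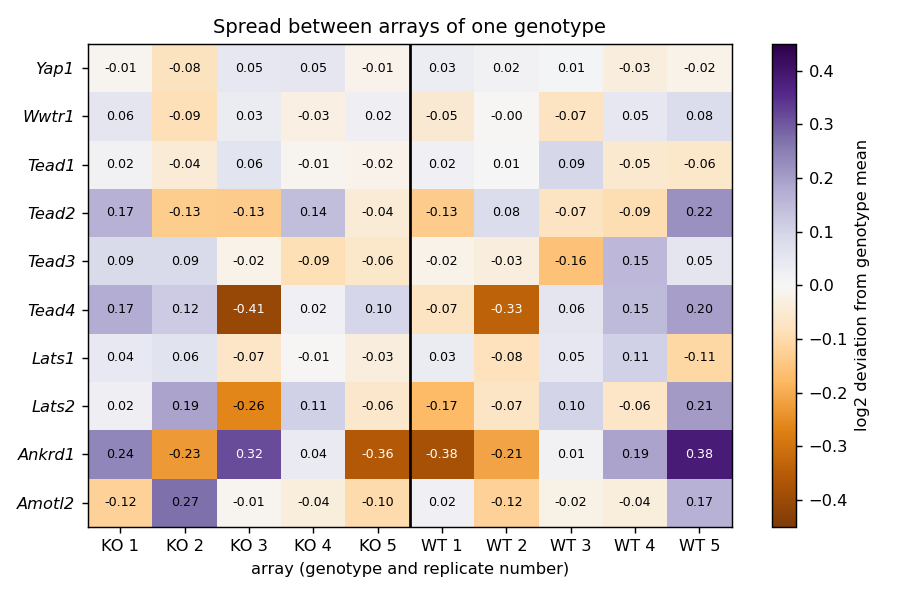
Log2 deviation of each array from the mean of its genotype for the 10 genes, with the 5 knock-out arrays at the left and the 5 wild-type arrays at the right of the black line. Dark cells mark Tead4 on knock-out array 3 (-0.41) and wild-type array 2 (-0.33) and the spread of Ankrd1 from -0.38 to 0.38, while Yap1 stays between -0.08 and 0.05.

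The 2 target genes did not pass either. Ankrd1, a nuclear and sarcomeric ankyrin repeat protein that is strongly induced by Yap, gave 9.63, 9.16, 9.71, 9.43 and 9.03 in knock-out cells, against 9.02, 9.18, 9.41, 9.59 and 9.78 in wild-type cells. Each genotype spanned about the same range, from low to high arrays, and the means of 9.39 ± 0.29 on knock-out arrays and 9.39 ± 0.31 on wild-type arrays (SD, n = 5 each) differed by -0.0031 with a standard error of 0.16. Its SD within genotypes, 0.30, was higher than that of most genes (percentile 92.7), so the 95% interval from -0.35 to 0.34 allows a 1.27-fold difference either way. Ankrd1 is also a gene of striated muscle. The mean deviation of 18 skeletal muscle markers was 0.33 on knock-out array 5, where Ankrd1 was lowest of its genotype, and 0.26 on wild-type array 5, where it was highest. These markers had 9 higher and 9 lower knock-out means, 7 of the 18 lay above the median gene on every array, and the log2 of their summed signal ran from 9.81 to 10.46 in knock-out and from 9.44 to 10.49 in wild-type cells. Their part in the spread of Ankrd1 was not tested.

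Amotl2, an angiomotin that binds Yap and restrains it, gave 6.04, 6.44, 6.15, 6.13 and 6.06 in knock-out cells, against 6.11, 5.97, 6.07, 6.05 and 6.26 in wild-type cells. Knock-out array 2 stood above every other array, and the remaining knock-out arrays lay within the wild-type range. The difference of 0.073 (standard error 0.090, limma adjusted p = 0.917) came to 0.0049 without knock-out array 2. Of the 10 genes, Amotl2 and Lats2 alone had a higher mean in the knock-out.

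**Figure D3:**
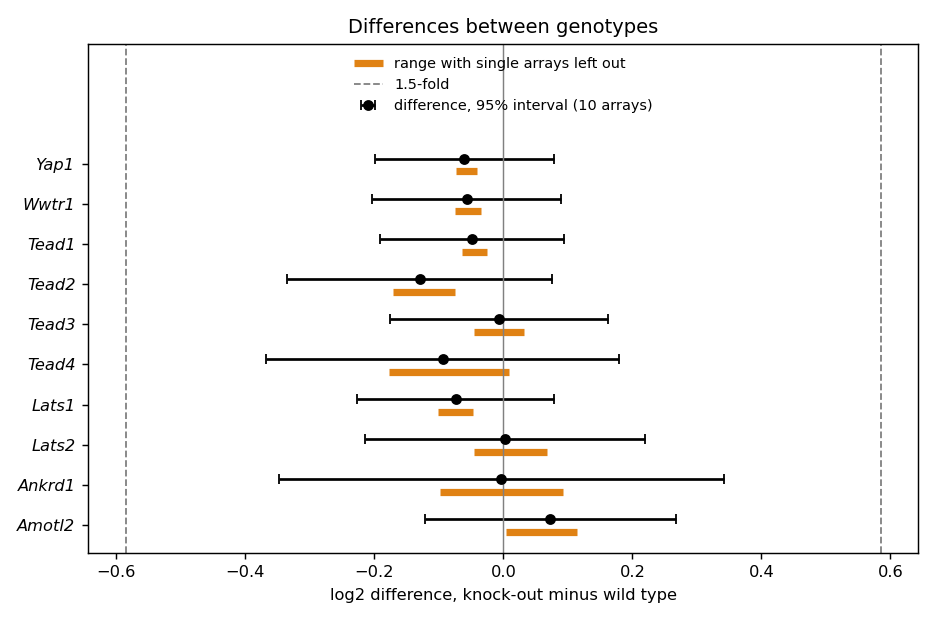
Log2 difference of the 10 genes, knock-out minus wild type, with its 95% interval (black) and the range of the difference when each array in turn was left out (orange). Dashed lines mark 1.5-fold; every interval crosses 0 and stays inside them, and the orange range crosses 0 for Tead3, Tead4, Lats2 and Ankrd1.

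The wider pathway was examined through lists of known genes. Of 42 listed upstream regulators, 33 were measured, from the kinase gene Stk4 and its adaptors to cell polarity and adhesion genes; 1 listed name, Map4k6, is an older name of Mink1. Their knock-out means were higher for 13 and lower for 20, with a median of -0.031, and 0 passed in either direction (the smallest limma adjusted p was 0.821). Limd1, a LIM domain protein that binds Lats kinases and holds them back from Yap, had the smallest p-value. It gave 6.41, 6.57, 6.46, 6.16 and 6.40 in knock-out cells, against 6.64, 6.69, 6.63, 6.64 and 6.72 in wild-type cells. All 5 knock-out arrays lay below all 5 wild-type arrays, which makes Limd1 the 1 gene of these 33 with groups apart, where 0.987% of all genes were. Its difference was -0.26 (standard error 0.082, exact two-sided permutation p = 0.00794, the smallest that 5 against 5 arrays can give; limma adjusted p = 0.821), and it stayed between -0.31 and -0.20 with single arrays left out. The next in order did not pass either: Strn, a scaffold of the phosphatase complex that counters Hippo kinases, differed by -0.14, Stk4, which encodes the kinase Mst1, by -0.14, and Tnik, a kinase of the Map4k group, by 0.23, with limma adjusted p-values from 0.841 to 0.842. Without wild-type array 5, Strn differed by -0.087 and Stk4 by -0.092, and Tnik differed by 0.16 without wild-type array 3.

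The Vgll proteins bind Tead factors at a surface that overlaps the one for Yap and Taz. Of the 4 genes, Vgll3 and Vgll4 lay above the median gene on every array and differed by -0.10 and 0.050, while Vgll1 and Vgll2 lay below it on every array and differed by 0.12 and 0.045. None passed, with limma adjusted p-values from 0.891 to 0.967. With single arrays left out, the differences ran from -0.17 to -0.038 for Vgll3, 0.021 to 0.081 for Vgll4, 0.041 to 0.18 for Vgll1 and -0.027 to 0.11 for Vgll2.

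Among 30 further genes known as targets of Yap and Taz, 28 were measured, 3 of which (Fjx1, Ptpn14 and Ajuba) are also among the upstream regulators. Their means were higher for 19 and lower for 9 in knock-out cells, with a median of 0.036, and 0 passed in either direction. Ccn1, a matricellular protein and a standard readout of Yap, averaged 10.91 ± 0.15 on knock-out arrays and 10.90 ± 0.056 on wild-type arrays (SD, n = 5 each), and the difference was 0.012 (95% interval -0.16 to 0.19). Ccn2, the connective tissue growth factor gene, averaged 11.15 ± 0.050 on knock-out arrays and 11.14 ± 0.10 on wild-type arrays (SD, n = 5 each), and the difference was 0.0058 (95% interval -0.15 to 0.16). For both readouts the genotype means were thus closer than the arrays of 1 genotype, and both signs turned when arrays were centred on their medians, to -0.0058 for Ccn1 and -0.012 for Ccn2; Ccn1 also came to -6.27e-05 with array weights.

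The targets with the smallest p-values did not pass. Tgfb2, a ligand of the TGF-beta family, gave 7.34, 7.29, 7.27, 7.57 and 7.59 in knock-out cells, against 7.30, 7.45, 7.03, 6.99 and 7.05 in wild-type cells. Wild-type arrays 1 and 2 overlapped the knock-out range, and the difference was 0.25 (standard error 0.11, limma adjusted p = 0.823). Ccdc80, a matrix protein gene, differed by 0.34 and the collagen gene Col8a1 by 0.15, both with a limma adjusted p of 0.842. Leaving out single arrays gave 0.21 (without knock-out array 5) to 0.48 (without knock-out array 3) for Ccdc80, and 0.090 (without knock-out array 2) to 0.19 (without wild-type array 5) for Col8a1. Birc5, which encodes survivin and is a gene of dividing cells, differed by -0.20 (limma adjusted p = 0.842), or -0.28 without knock-out array 1 and -0.13 without knock-out array 4, and it was lowest on knock-out array 4, at 7.62. On that array 11 genes of dividing cells had their lowest mean deviation, -0.38, where the remaining knock-out arrays had -0.17 to 0.17 and the wild-type arrays -0.15 to 0.22. All 11 had a lower knock-out mean, against 49.3% of all genes, and 0 of them passed. At an unadjusted limma p under 0.05 there were 4 of the 11, where 5.98% of all genes lay, and no test of the set was run. The log2 of their summed signal ran from 11.09 to 11.63 in knock-out and from 11.33 to 11.67 in wild-type cells. The part of these 11 genes in the value of Birc5 was not tested. Tagln, listed as a target and also a smooth muscle gene, differed by 0.074 (limma adjusted p = 0.898). The 15 smooth muscle markers, Tagln included, all had higher knock-out means, where 49.3% of all genes had a lower one. Their median difference was 0.12 and 0 passed. At an unadjusted limma p under 0.05 there were 2 of these 15, where 5.98% of all genes lay, and no test of this set was run either. The log2 of their summed signal ran from 13.93 to 14.08 on knock-out arrays and from 13.80 to 14.06 on wild-type arrays. The part of these markers in the target values was not tested.

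**Figure D4:**
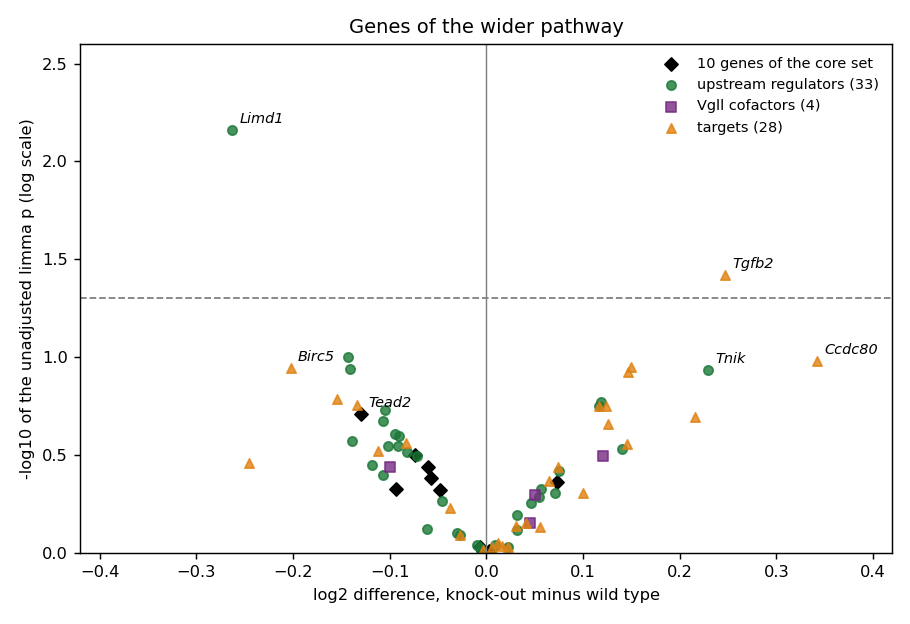
Log2 difference (horizontal) and minus log10 of the unadjusted limma p (vertical) for the 10 genes (black), 33 upstream regulators (green), 4 Vgll cofactors (purple) and 28 targets (orange). The dashed line is an unadjusted p of 0.05. Only Limd1, at -0.26, and Tgfb2, at 0.25, lie above it, where 5.98% of all genes would. No gene passed after adjustment over all genes.

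Whether readouts moved together from array to array was examined across the 10 arrays, after each genotype's mean had been taken off. Of 6 pairs tested, 0 passed a permutation test after adjustment over the 6. The closest were Lats2 and Amotl2, with Pearson's r = 0.54 (permutation p = 0.112, adjusted 0.568) and Spearman's rho = 0.30 (permutation p = 0.408, adjusted 0.817), and r = 0.53 without the 2 arrays farthest from the median of Lats2. Ankrd1 and Ccn2 gave r = 0.42 (permutation p = 0.226, adjusted 0.568) and rho = 0.32 (permutation p = 0.370, adjusted 0.817), and r = 0.39 without 2 such arrays, but 0.14 without wild-type array 5 and 0.59 without knock-out array 2. Ankrd1 and Ccn1 gave r = 0.37 (permutation p = 0.284, adjusted 0.568) and rho = 0.36 (permutation p = 0.311, adjusted 0.817), and r = -0.047 without knock-out array 5 and wild-type array 1. For Yap1 with Wwtr1, Ankrd1 with Amotl2 and Yap1 with Ankrd1, r was 0.031, 0.046 and 0.096, rho was -0.15, 0.042 and -0.0061, and all 3 adjusted permutation p-values of r were 0.933 and those of rho were 1.0. Without 2 arrays each, these r values were -0.49, -0.10 and -0.18. In 4 of the 6 pairs, these 3 and Ankrd1 with Ccn2, the sign of r differed between knock-out and wild-type arrays. With 5 arrays in each, r within a genotype was not tested. Whether the pooled value describes either genotype is thus not known.

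The genes whose deviations from genotype means were most like those of a member were looked for among 11089 genes above the median mean level, by Pearson's r over 10 arrays. They are the highest of 11089 values each and are given as a description. For Yap1 they were Bst2, Ccdc186 and Nsmce2 (r from 0.92 to 0.94), and for Tead2 they were Trp53i11, Atg7 and Arpc1a (r from 0.93 to 0.97). For Ankrd1 they were the small nucleolar RNA gene Snora74a, Polr2k and Cttnbp2nl (r = 0.96 each), and for Amotl2 they were Ccnd2, Mxd1 and Pdrg1 (r from 0.90 to 0.91). None of these 12 genes had passed the test between genotypes (limma adjusted p-values from 0.821 to 0.989).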

How the data were processed

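The table analysed holds the authors' deposited values for 41345 probe sets on 10 arrays, taken as log2 from their range; the authors' steps from scanner signal to these values (background, normalization, probe summary) are not stated in the sources used. Without detection calls, no background level can be set. Of the probe sets, 23521 had 1 gene symbol in the platform annotation and were used; 1814 had several and 16010 none. The probe set with the highest mean stood for each of 22180 genes. Differences, knock-out minus wild type, were fitted on all genes in limma 3.58.1 (lmFit, then eBayes; R 4.3.3) without filter or covariate, and adjusted by the Benjamini-Hochberg method with a threshold of 0.05. Single genes had an exact permutation test, two-sided, over the arrays, and correlations by 100000 permutations (numpy 2.4.6) or, with 8 arrays, all of them. A list's mean deviation on an array is its genes' mean difference from their means over 10 arrays. The scripts were tested on simulated data. Promoters came from RefSeq tables, and figures were drawn with matplotlib 3.10.9.

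The members and gene lists were chosen with earlier results of these data known. All members are named; of each pathway list, the first 4 genes by p-value are named, with Ccn1 and Ccn2 whatever their values, and 3 most similar genes for each of Yap1, Ankrd1, Amotl2 and Tead2. The alternatives were 9 other settings and leaving out each of the 10 arrays. The number of arrays limits the precision, with a median standard error of 0.101 over all genes.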

Additional observations from a re-analysis of the deposited data

Results flagged for a closer look

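Arrays that stood apart from the others of their genotype were looked for in 20 groups of 5 arrays, with Dixon's ratio of the gap to the range at its 95% critical value of 0.71; chance marks about 1 group in 20. In 2 groups an array stood apart. Tead4 on knock-out array 3 was at 5.58, while the remaining knock-out arrays had 6.001 to 6.16, a ratio of 0.73. Amotl2 on knock-out array 2 was at 6.44, while the remaining knock-out arrays had 6.04 to 6.15, also a ratio of 0.73. Without the array in question, the difference between genotypes was 0.0081 for Tead4 and 0.0049 for Amotl2.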

How the results depend on the processing

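Under 9 other settings and with each of 10 arrays left out, 0 of the 10 genes passed the threshold, and the smallest adjusted p was 0.694, for Tead2 without knock-out array 1. No pair of genes had correlations that passed under the added alternatives. Over all genes the count past the threshold was 0 or, in leaving out single arrays, 0 to 1, the 1 being Thg1l without wild-type array 5, and it was 0 in the other 9 settings. Signs of the smallest differences turned: under quantile normalization Tead3 came to 0.025 and Ankrd1 to 0.0053, and with arrays centred on their medians Lats2 came to -0.015, Ccn1 to -0.0058 and Ccn2 to -0.012, while Ccn1 came to -6.27e-05 with array weights. Yap1 came to -0.010 when both its probe sets were averaged. In leave-one-out fits, differences ran from -0.045 to 0.031 for Tead3, -0.18 to 0.0081 for Tead4, -0.045 to 0.068 for Lats2, -0.098 to 0.093 for Ankrd1, -0.027 to 0.11 for Vgll2, -0.028 to 0.051 for Ccn1 and -0.026 to 0.039 for Ccn2; the sign turned in 16 of 100 such values for the 10 genes. In correlations added after seeing the data, r under quantile normalization was -0.015 for Yap1 and Wwtr1 and -0.26 for Yap1 and Ankrd1; leaving out single arrays gave -0.67 to 0.16 for Yap1 and Wwtr1, -0.27 to 0.51 for Ankrd1 and Amotl2 and -0.19 to 0.28 for Yap1 and Ankrd1. The cause of these changes was not tested. The labels give both genotypes the numbers 1 to 5 and do not say whether equal numbers are pairs. Same-numbered arrays had r across genes from -0.045 to 0.17, and arrays of unlike number from -0.20 to 0.18. Such values cannot show whether same-numbered arrays were handled together. With the replicate block 0 of the 10 genes and 0 of all genes passed (smallest limma adjusted p of the 10, 0.885).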

Other observations

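Wild-type array 5 had the highest signal of its genotype for 6 of the 10 genes, Wwtr1, Tead2, Tead4, Lats2, Ankrd1 and Amotl2, and the lowest for Tead1 and Lats1. The mean deviation of the 10 genes from their means over all arrays was 0.13 on that array, the highest of the 10 arrays, against -0.077 to 0.048 on knock-out arrays and -0.055 to 0.056 on the other wild-type arrays. Knock-out array 3 was the lowest of its genotype for 4 of the 10, Tead2, Tead4, Lats1 and Lats2, and the highest for Tead1 and Ankrd1.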
